A study of Homo sapiens with 15 samples.

Results

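Cardiomyocyte cultures made by 2 routes were compared on days 7 and 10 of differentiation, using 4 of the 15 bulk RNA-seq libraries of a time course in the human embryonic stem cell line H1. The libraries were chosen by their labels, and the genes described are the 15919 of 60605 genes that had at least 30 counts in 1 of the 4 libraries. All H1 cells were wild type and received CHIR99021, which activates WNT signalling, on day 0 and insulin on day 1, and the libraries of days 0 to 2 were common to every arm. In the first route the cells stayed in place and IWP2, which blocks the secretion of WNT proteins, was present from day 2 to day 4 (NP-IWP2, where NP means not passaged). In the second route the cells were detached with EDTA on day 2 and replated on Matrigel at a split of 1:6 with no WNT inhibitor (passaged). The ROCK inhibitor Y27632 was in use at replating by that stage of the study, and whether insulin was also added for these libraries is not given in the sources used here. The arm NP-ctrl was neither passaged nor given an inhibitor, and its values are used only as the background of the static culture. Both routes are from 1 cell line and 1 series of cultures, and the comparison of the 2 routes holds WNT inhibition and replating at once, while each route differs from NP-ctrl by 1 of these steps. Replating itself joins detachment with EDTA, the split of 1:6 and Y27632, which cannot be told apart here. NP-ctrl values are given beside the main results, without a test of either step.

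In vertebrate development, WNT signalling first promotes mesoderm and must then decline for mesoderm cells to become heart muscle, and inhibitors of WNT secretion imitate this decline in culture. Cardiac progenitors then switch on transcription factors such as NKX2-5 and TBX5, followed by the proteins of the sarcomere, the repeating unit of thick (myosin) and thin (actin) filaments anchored at Z-discs. Later steps bring a change of myosin and troponin isoforms, calcium stores, mitochondria and withdrawal from the cell cycle. Static mesoderm cultures can also hold endoderm, epicardial, endothelial and fibroblast-like cells, so markers of these were followed beside the cardiac genes.

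Each arm had 1 library on each day, so no library had a replicate. Total counts were 14991859 to 16168278, and 26906 to 29862 genes were above 0. Levels are FPKM, which is the counts scaled to the exon length of the gene and the total count of the library. For single genes the ratio of passaged to NP-IWP2 cells on each day is given with an exact (Clopper-Pearson) 95% interval, which covers counting error only. In counts of genes and in list medians, libraries with 3 counts or fewer were set to 3. For a single gene, only a library with 0 counts was set to 3, which gives a lower bound of the fold difference, while 1 to 3 counts were kept and the ratio is to be read by its interval. Genes are said to have risen or fallen in passaged cells only where edgeR's quasi-likelihood test over both days, with day as a block, gave an adjusted p under 0.05 over all 15919 genes. The spread in that test is how far the difference between the arms varied from day 7 to day 10 in 1 series of cultures, not the spread between separate differentiations. In bulk RNA, fewer cells of a type and less RNA per cell cannot be told apart.

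The label of the cultures was checked against 21 cardiomyocyte identity genes, all of which passed the filter. Their summed FPKM was 3956 in NP-IWP2 cells and 7155 in the passaged cells on day 7, and 3025 and 7889 on day 10, against 1010 and 937 in NP-ctrl. The sum of these 21 genes was thus higher in both routes than in the static control, and abundant genes weigh most in it. Of the 21 genes 7 rose in passaged cells (VCAM1, MYL3, TNNC1, MYH7, NKX2-5, ACTC1 and MYL4) and 1 fell (TBX5). The largest rise by its smaller daily ratio after MYH7 was that of VCAM1 (ENSG00000162692, chromosome 1, 100719742 to 100739045 on hg38), a surface adhesion protein used to sort cardiomyocytes from stem cell cultures. VCAM1 was at 13.0 FPKM in NP-IWP2 cells and 84.1 in the passaged cells on day 7, and at 51.9 and 379 on day 10, ratios of 6.48 (6.10 to 6.88) and 7.31 (7.09 to 7.53). Cardiac troponin T (TNNT2), the usual marker of such cultures, did not pass the test, with 34.4 and 39.4 FPKM on day 7 and 42.8 and 55.5 on day 10.

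Across all genes the passaged cultures had more genes at a lower than at a higher level. At least 2-fold differences on day 7 numbered 749 higher (4.71% of the genes) and 1520 lower (9.55%), and on day 10 they numbered 803 (5.04%) and 2400 (15.1%). On both days 284 genes (1.78%) were at least 2-fold higher and 1071 (6.73%) at least 2-fold lower, and these shared genes made up 37.9% of the higher genes of day 7 and 35.4% of those of day 10, and 70.5% and 44.6% of the lower genes. By the edgeR test 295 genes rose (1.85%) and 618 fell (3.88%), while scaling by total counts gave 112 that rose and 427 that fell. In every list the members that rose or fell are to be read beside the shares of 1.85% and 3.88%. A single call in a list can lie near these shares. The median log2 ratio of all genes was -0.07 on day 7 and -0.13 on day 10, and on day 10 it was shifted by 0.15 under TMM scaling, by 0.14 under median-of-ratios scaling and by -0.23 under TPM, so list medians below are to be read beside these values. The log2 ratios of the 2 days, which share no library, had a Pearson correlation of 0.67 and a Spearman correlation of 0.54 across 15879 genes, which are not independent replicates.

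**Figure D1:**
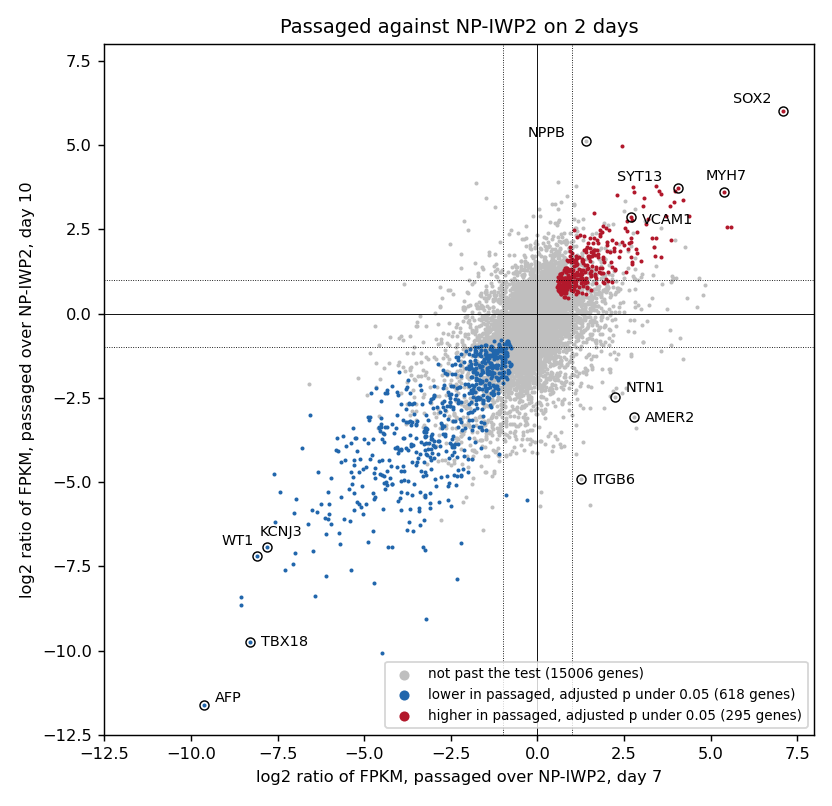
Each point is a gene, with its log2 ratio of FPKM in passaged over NP-IWP2 cells on day 7 (horizontal axis) and on day 10 (vertical axis). Coloured points are the 295 genes that rose and the 618 that fell by the edgeR test, dotted lines mark a 2-fold difference, and the lower left arm of the cloud, which holds AFP, TBX18 and WT1, reaches further from 0 than the upper right arm, which holds SOX2 and MYH7.

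Genes of the thick filament were higher in passaged cultures. Of 13 members that passed the filter 5 rose (among them MYH7, MYL3, MYL4 and MYOM1) and 1 fell (MYOM2), with median log2 ratios of 0.67 on day 7 and 1.19 on day 10. MYH7 (ENSG00000092054, chromosome 14, 23412740 to 23435660) encodes the slow beta myosin heavy chain, the main one of the adult human ventricle. Its FPKM was 5.77 in NP-IWP2 cells and 240.7 in the passaged cells on day 7, and 17.3 and 209 on day 10, so both passaged libraries lay above both NP-IWP2 libraries, and its fitted log2 change was 4.59 (SE 0.46, edgeR adjusted p 0.00735). The alpha heavy chain MYH6, which predominates in atrial muscle, was the more abundant of the pair in all 4 libraries. It was at 633 and 778 FPKM on day 7 and 445 and 1013 on day 10, and did not pass the test. Per length, MYH7 amounted to 0.912% of MYH6 in NP-IWP2 cells and 30.9% in the passaged cells on day 7, and to 3.88% and 20.6% on day 10. The 2 genes are neighbours with near-identical stretches, so some reads may have been assigned to the wrong one.

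The regulatory and structural parts of the thick filament followed with smaller differences. MYL3, the ventricular essential light chain, was at 49.0 and 156 FPKM on day 7 and at 106 and 356 on day 10, and MYOM1, which cross-links myosin at the M-band, was at 28.2 and 80.3 and at 42.3 and 126. MYL4, the essential light chain of atrial and fetal muscle, rose as well, at 251 and 438 FPKM on day 7 and 230 and 459.6 on day 10. MYOM2, a second M-band protein, fell by 2.03 on the log2 scale (SE 0.32, edgeR adjusted p 0.025), from 1.38 to 0.41 FPKM on day 7 and from 3.20 to 0.57 on day 10. MYL2, the ventricular regulatory light chain, had 0 counts in both libraries of day 7 and 8 and 32 counts on day 10, and did not pass the test.

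Thin filament genes had 5 that rose of 15 (ACTC1, ACTA1, TNNC1, LMOD2 and XIRP1) and 0 that fell, with medians of 0.19 and 0.73. Cardiac actin ACTC1 (chromosome 15, 34790230 to 34795549) had the highest level of the list, at 1040 and 2575 FPKM on day 7 and 713 and 2147 on day 10. Skeletal actin ACTA1 (chromosome 1, 229430365 to 229434104), which the developing heart also makes, had a low level but a larger difference, at 2.16 and 15.02 FPKM on day 7 and 2.86 and 34.7 on day 10, ratios of 6.97 (5.52 to 8.89) and 12.1 (9.95 to 14.9). The 2 actins are close paralogs, and ACTA1 amounted per length to 0.208% and 0.583% of ACTC1 on day 7 and 0.401% and 1.62% on day 10. Troponin C, encoded by TNNC1, binds the calcium that starts contraction and was at 161 and 531 FPKM on day 7 and 78.4 and 359 on day 10. Troponin I isoforms did not pass the test. TNNI1, the fetal form, was at 141 and 128 FPKM on day 7 and 103 and 170 on day 10, and TNNI3, the adult form, was at 1.43 and 0.95 and at 3.23 and 2.46.

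Z-disc and cytoskeletal genes had 6 that rose of 22 (ANKRD1, SORBS2, CSRP3, SMPX, LDB3 and HSPB7) and 1 that fell (DES), with medians of 0.61 and 0.88. ANKRD1, a stretch-responsive protein that binds titin, was at 108 and 483 FPKM on day 7 and 27.3 and 123 on day 10, ratios of 4.47 (4.30 to 4.65) and 4.51 (4.17 to 4.88). It was lower on day 10 than on day 7 in both arms by a like factor, while SORBS2, an adaptor of the Z-disc, was higher on day 10 in both arms, at 8.53 and 29.9 FPKM on day 7 and 17.6 and 89.8 on day 10. CSRP3, the muscle LIM protein, was at 9.28 and 25.1 and at 13.4 and 52.2. Desmin (DES), the muscle intermediate filament, went the other way, at 38.5 and 11.2 FPKM on day 7 and 47.2 and 19.7 on day 10, and its NP-ctrl levels were 34.9 and 80.9. Its call was lost in a fit over the 12 libraries of days 3 to 10, where its log2 change was 0.017 (edgeR adjusted p 0.995). Most named genes, rising or falling, also lost their call in that fit, which kept 30 of 144. Titin (TTN) was at 13.1 and 21.4 FPKM on day 7 and 25.7 and 32.0 on day 10 and did not pass the test.

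Many sarcomere genes are activated by serum response factor, with or without its cardiac partner myocardin, through the CArG box, a site of CC, then 6 bases that are each A or T, then GG. Of the 16 filament and Z-disc genes that rose, 11 had a promoter in the RefSeq table used here, and 4 of these held a CArG box in the 250 bases before the start. They are shown 5′ to 3′ on the strand of the gene with the CArG box in capitals, from build GRCh38.p14, as the upstream sequence of genes that rose. The windows are chr1:229434095-229434344 (minus strand) for ACTA1, chr15:34795550-34795799 (minus strand) for ACTC1, chr10:86668261-86668510 (plus strand) for LDB3 and chr18:3219969-3220218 (minus strand) for MYOM1.
ACTA1: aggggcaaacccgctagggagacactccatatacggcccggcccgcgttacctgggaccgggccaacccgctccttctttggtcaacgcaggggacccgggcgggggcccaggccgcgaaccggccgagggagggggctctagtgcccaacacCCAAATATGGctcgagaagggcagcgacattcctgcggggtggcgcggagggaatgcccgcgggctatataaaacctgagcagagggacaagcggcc
ACTC1: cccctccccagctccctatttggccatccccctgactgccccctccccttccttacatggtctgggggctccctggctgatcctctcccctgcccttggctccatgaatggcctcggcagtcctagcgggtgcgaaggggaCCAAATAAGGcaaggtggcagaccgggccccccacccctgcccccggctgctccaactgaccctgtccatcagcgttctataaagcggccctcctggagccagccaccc
LDB3: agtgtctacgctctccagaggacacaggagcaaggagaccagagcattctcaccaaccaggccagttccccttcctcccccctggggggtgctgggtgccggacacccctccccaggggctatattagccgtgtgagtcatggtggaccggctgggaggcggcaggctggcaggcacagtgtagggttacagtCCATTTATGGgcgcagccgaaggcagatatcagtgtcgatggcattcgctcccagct
MYOM1: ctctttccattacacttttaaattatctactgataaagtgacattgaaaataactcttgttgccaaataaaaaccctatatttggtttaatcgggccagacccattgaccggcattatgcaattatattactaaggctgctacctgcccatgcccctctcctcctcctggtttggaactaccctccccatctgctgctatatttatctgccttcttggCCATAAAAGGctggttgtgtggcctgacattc

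The first base of the box was 97 bases before the start in ACTA1, 109 in ACTC1, 57 in LDB3 and 32 in MYOM1. The pattern reads the same way on both strands, and it was found in 1.14% of the 27305 promoters of the table, in 1.10% of the 11590 promoters of genes that passed the filter, in 3.77% of the 212 promoters of genes that rose and in 1.33% of the 450 of genes that fell. These shares were not tested, and a match describes letters, not binding. Serum response factor itself (SRF) was at 22.4 and 21.7 FPKM on day 7 and 11.2 and 24.5 on day 10 and did not pass the test. Myocardin (MYOCD), its coactivator in heart and smooth muscle, rose, at 27.4 and 86.3 FPKM on day 7 and 23.6 and 51.6 on day 10, ratios of 3.15 (3.04 to 3.27) and 2.19 (2.10 to 2.28).

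**Figure D2:**
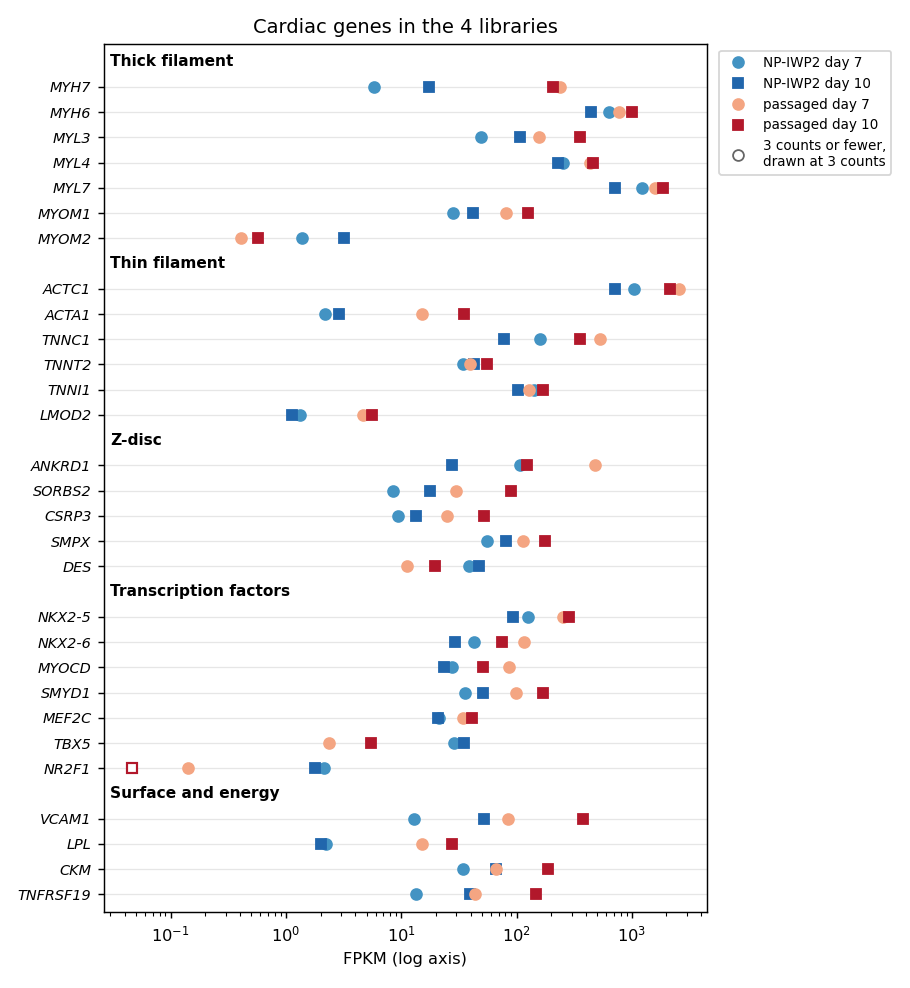
FPKM of cardiac genes in the 4 libraries on a log axis, with NP-IWP2 in blue and passaged in red, circles for day 7 and squares for day 10. MYH7, ACTA1, LPL and VCAM1 have both passaged points to the right of both NP-IWP2 points, while MYOM2, DES, TBX5 and NR2F1 have them to the left, and TNNT2 and TNNI1 overlap.

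Cardiac transcription factors split in direction. Of 26 members 6 rose (NKX2-5, NKX2-6, MYOCD, SMYD1, PROX1 and MEF2C) and 3 fell (TBX5, NR2F1 and ZFPM2), with medians of 0.12 and 0.36. NKX2-5, which marks committed cardiac cells, was at 126 and 252 FPKM on day 7 and 92.3 and 287 on day 10. Its relative NKX2-6, a homeobox gene of the pharyngeal and outflow region, was at 42.4 and 117 and at 29.2 and 74.3, ratios of 2.77 (2.59 to 2.96) and 2.55 (2.35 to 2.77). SMYD1, a muscle methyltransferase needed for myofibril assembly, was at 35.5 and 99.9 and at 51.1 and 168. TBX5 (chromosome 12, 114353911 to 114408442), a T-box factor of the first heart field, the atria and the inflow, fell by 3.03 on the log2 scale (SE 0.28, edgeR adjusted p 0.00589), with 28.8 and 2.34 FPKM on day 7 and 34.9 and 5.43 on day 10. Its levels in NP-ctrl, 10.3 and 19.01 FPKM, lay between those of the 2 routes. The core factors GATA4 (139 and 71.9 FPKM on day 7, 78.8 and 71.7 on day 10), GATA6, HAND2 and TBX20 did not pass the test.

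Genes of the second heart field, the progenitor pool that adds the right ventricle and outflow tract, were mostly higher in passaged cultures. Of 12 members 5 rose (among them SIX2, EYA1, FGF8 and WNT11) and 1 fell (SEMA3C), with medians of 0.96 and 0.84. EYA1, a transcriptional coactivator of the pharyngeal and outflow region, was at 0.23 and 0.96 FPKM on day 7 and at 0.16 and 0.58 on day 10. SIX2 had 4 and 166 counts on day 7 and 0 and 17 on day 10, so its day 10 level was at least 5.90-fold higher in passaged cells. FGF8, a growth factor of the outflow region, was at 14.8 and 28.4 and at 3.54 and 10.7 FPKM. Semaphorin SEMA3C, a guidance signal of the outflow tract, was at 37.3 and 8.88 FPKM on day 7 and 41.0 and 18.8 on day 10, while ISL1, the factor most used to mark the field, had 37.0 and 47.8 and then 28.8 and 17.0, with no call.

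Pacemaker genes had the clearest difference among cardiac lists in the other direction. Of 13 members 7 fell (among them TBX18, KCNJ3, CACNA1D, VSNL1, SHOX2 and HCN4) and 0 rose, with medians of -0.92 and -1.19. TBX18 (ENSG00000112837, chromosome 6, 84687351 to 84764598), a T-box factor of the sinus node and epicardium, had 3055 and 9 counts on day 7 and 8928 and 10 on day 10, that is 21.8 and 0.07 FPKM and 65.1 and 0.08 FPKM. It was 315-fold (166 to 689) and 858-fold (466 to 1789) lower in passaged cells, and NP-ctrl had 7.13 and 40.6 FPKM. KCNJ3, a subunit of the acetylcholine-activated potassium channel of atria and node, had 720 and 379 counts in NP-IWP2 and 0 counts in both passaged libraries, which were at least 222-fold and 121-fold lower. The pacemaker channel HCN4 was lower by smaller factors, at 26.1 and 13.8 FPKM on day 7 and 44.2 and 21.9 on day 10, ratios of 0.529 (0.496 to 0.564) and 0.494 (0.470 to 0.520). Not all node genes followed: TBX3, a repressor that keeps the node program, was at 12.9 and 13.1 FPKM on day 7 and 10.3 and 19.7 on day 10. TBX18 also stands in the epicardial list, whose other members differed as described below, and the part of epicardial cells in its difference was not tested.

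Among 13 atrial genes 5 fell (KCNJ3, TBX5, SLN, NR2F1 and KCNA5) and 1 rose (MYL4), with medians of -0.18 and -0.71. Sarcolipin (SLN), an atrial inhibitor of the calcium pump, was at 28.3 and 1.55 FPKM on day 7 and had 381 and 3 counts on day 10, a ratio of 0.0082 (0.00168 to 0.0241), and NP-ctrl was at 284 and 154 FPKM. NR2F1, a nuclear receptor of atrial identity, had 150 and 9 counts on day 7 and 122 and 1 on day 10, whereas its paralog NR2F2 was at 4.08 and 4.46 FPKM and at 4.27 and 4.17. Of 10 ventricular genes 3 rose (MYL3, MYH7 and MPPED2) and 0 fell, with medians of 0.13 and 0.52. The ventricular factor IRX4 went in opposite directions, at 10.4 and 4.35 FPKM on day 7 and 14.1 and 22.5 on day 10, and the ventricular factor HEY2 was at 3.08 and 4.66 and at 9.02 and 6.23. MYL7, the atrial regulatory light chain, did not follow the other atrial genes and was at 1216 and 1585 FPKM on day 7 and 720.2 and 1868 on day 10.

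Calcium handling genes had 3 that rose of 23 (CASQ2, JPH2 and CACNA1C) and 3 that fell (CACNA1D, SLN and CACNA2D1). Calsequestrin CASQ2, the calcium buffer of the sarcoplasmic reticulum, had 15 and 90 counts on day 7 and 25 and 105 on day 10, ratios of 6.47 (3.72 to 12.04) and 4.37 (2.81 to 7.06). The 2 main calcium channel subunits of heart went in opposite directions: CACNA1C of working muscle was at 3.27 and 4.89 FPKM on day 7 and 3.68 and 6.42 on day 10, while CACNA1D of the node was at 5.26 and 1.49 and at 8.37 and 2.57. The ryanodine receptor RYR2 (10.7 and 16.9, then 19.2 and 30.4 FPKM) and the pump ATP2A2 (35.3 and 35.5, then 60.4 and 64.1) did not pass the test. The list median was 0.06 on day 7 and 0.12 on day 10, and the latter was -0.10 under TPM. Among 19 ion channels, pumps and connexins 2 rose (KCNH2 among them) and 1 fell (KCNA5), against 1.85% and 3.88% of all genes. Their medians were 0.37 and 0.07, the second of which was -0.15 under TPM. KCNH2, the channel of the rapid repolarizing current, was at 6.72 and 12.8 FPKM and at 6.33 and 13.5.

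The natriuretic list held 6 genes, of which NPR1 fell and 0 rose, with medians of -0.43 and 0.36. NPR1, the receptor of both cardiac peptides, had 832 and 18 counts on day 7 and 955 and 13 on day 10, and was 42.9-fold (27.0 to 72.7) and 70.6-fold (41.1 to 133) lower in passaged cells. The peptide gene NPPB, in contrast, was at 10.4 and 27.3 FPKM on day 7 and 2.23 and 78.3 on day 10, ratios of 2.63 (2.12 to 3.28) and 35.1 (23.6 to 54.6). NPPB was higher on both days, but its ratio changed so much between them that it did not pass the test (edgeR adjusted p 0.106). NPPA, the atrial peptide, was low in all 4 libraries, with 7 and 10 counts on day 7 and 48 and 79 on day 10.

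Markers of endoderm, liver and yolk sac had the largest differences of the 42 lists on day 10. Of 27 members 20 fell and 0 rose, with medians of -3.56 on day 7 and -4.40 on day 10. Their summed FPKM was 481 in NP-IWP2 cells and 142 in the passaged cells on day 7, and 1746 and 74.9 on day 10, while NP-ctrl was at 995 and 6470, so the sum grew between the days in the static arms and was lower on the later day in the passaged arm. Alpha-fetoprotein AFP (ENSG00000081051, chromosome 4, 73431138 to 73456174), the main serum protein of yolk sac and fetal liver, had 2574 and 0 counts on day 7 and 36277 and 11 on day 10. The passaged level was lower by at least 796-fold on day 7 and by 3169-fold (1771 to 6348) on day 10. Transthyretin (TTR) had 1207 and 3 counts and then 2136 and 6, and the apolipoprotein APOA1 was at 139 and 13.2 FPKM and then at 314 and 17.4. The endoderm factors HNF4A and FOXA2, which define the lineage, had 268 and 173 counts in NP-IWP2 on day 7 and 184 and 53 on day 10, and 0 to 3 counts in the passaged libraries. Albumin (ALB) was lower by much smaller factors, at 3.71 and 3.19 FPKM on day 7 and 5.24 and 2.78 on day 10.

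Epicardial and mesothelial genes came next, with 6 of 13 that fell (TBX18, WT1, SFRP5, BNC1, TCF21 and BNC2), 1 that rose (LRRN4) and medians of -1.87 and -4.31. WT1, the defining factor of epicardium, had 877 and 455 counts in NP-IWP2 and 2 and 1 in passaged cells, ratios of 0.00246 (0.000297 to 0.00891) and 0.00229 (5.78e-05 to 0.0128). TCF21, which marks epicardium and the fibroblasts it gives rise to, had 168 and 360 counts in NP-IWP2 and 0 in both passaged libraries, which were at least 51.9-fold and 115-fold lower. The keratins of simple epithelia, which are in the same list, did not follow, as KRT18 was at 420.5 and 529 FPKM on day 7 and 98.6 and 104 on day 10. Basonuclin BNC1, a factor of mesothelium, was at 12.6 and 0.94 FPKM and at 15.2 and 0.48, and NP-ctrl was at 36.0 and 53.7.

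Fibroblast and matrix genes had 13 of 28 that fell and 0 that rose, with medians of -1.05 and -2.79. Summed over the list, FPKM was 2867 with IWP2 and 2177 after passaging on day 7, then 2623 and 674 on day 10, against 6803 and 7030 in NP-ctrl, so the arms were closer on day 7 than on day 10. Lumican (LUM), a proteoglycan of collagen fibres, was at 136 and 2.57 FPKM on day 7 and 165 and 1.8 on day 10, 52.9-fold (43.6 to 65.0) and 91.6-fold (72.8 to 117) lower in passaged cells. The fibrillar collagens were lower by less, with COL1A2 at 175 and 44.5 and at 174 and 27.2 FPKM, and COL3A1 at 705 and 218 and at 628 and 61.2. Fibronectin (FN1) was higher in passaged cells on day 7 and lower on day 10, at 388 and 1055 and at 322 and 191 FPKM, and the fibrillin FBN2 was higher on both days, at 32.8 and 99.8 and at 86.5 and 138, but neither passed the test.

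Endothelial and blood genes had 3 of 22 that fell (TEK, PLVAP and FLI1) and 1 that rose (LMO2), against 3.88% and 1.85% of all genes. Their medians were -1.42 and -2.10. The angiopoietin receptor TEK was at 18.6 and 1.72 FPKM on day 7 and 13.5 and 0.68 on day 10. Several others had few counts, such as PECAM1 with 4 and 2 counts on day 7 and 158 and 35 on day 10, and did not pass. KDR, a VEGF receptor that cardiac progenitors also make, was at 91.3 and 29.7 FPKM and then at 100.4 and 119. Smooth muscle genes had 2 of 11 that rose (CNN1 and MYL9), 0 that fell and medians of 0.35 and 0.29. Calponin CNN1, which early cardiomyocytes also express, was at 22.1 and 50.6 FPKM on day 7 and 8.84 and 28.3 on day 10, while MYH11, which defines mature smooth muscle, had only 24 to 31 counts in the 4 libraries.

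Neural and ectodermal genes went in both directions, and 6 of 8 genes of the pluripotency list were lower in passaged cells on both days. SOX2, also a pluripotency gene, was counted only in the neural and ectodermal list, and it rose. Of 11 neural and ectodermal genes that passed the filter 3 rose (SOX2, SOX3 and NES) and 3 fell (OTX2 and ZIC2 among them), with medians of -0.63 and -0.54. SOX2 had 5 and 638 counts on day 7 and 3 and 187 on day 10, a ratio of 138 (58.7 to 425) on day 7 and of 64.9 (21.9 to 317) on day 10, and NP-ctrl was at 0.06 FPKM on both days. SOX2 lies within SOX2-OT, a noncoding transcript that had 1 to 16 counts, and strand use in the counting is not stated. Of 8 pluripotency genes that passed, TDGF1 rose and ZFP42 and L1TD1 fell, and 6 were lower on both days, against 43.2% of all genes, with medians of -0.80 and -1.81. Their summed FPKM was close between the arms, at 192 and 187 on day 7 and 74.3 and 72.8 on day 10, while POU5F1 and NANOG did not reach the count minimum. TDGF1, a NODAL co-receptor also used in early heart, was at 11.5 and 24.2 FPKM on day 7 and 8.55 and 48.1 on day 10. Only 6 of 28 HOX genes passed the filter, all of the HOXB cluster, and 3 of them fell (HOXB6, HOXB5 and HOXB3), with medians of -3.69 and -2.46. HOXB5 had 346 and 4 counts on day 7 and 109 and 4 on day 10, so it reached the count minimum only in NP-IWP2. All 6 HOXB genes were at least 2-fold lower on day 7. The filter keeps genes that are high in 1 arm only, so the direction and medians of this list were partly set by it. HOXB genes overlap one another, so their reads may be shared.

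**Figure D3:**
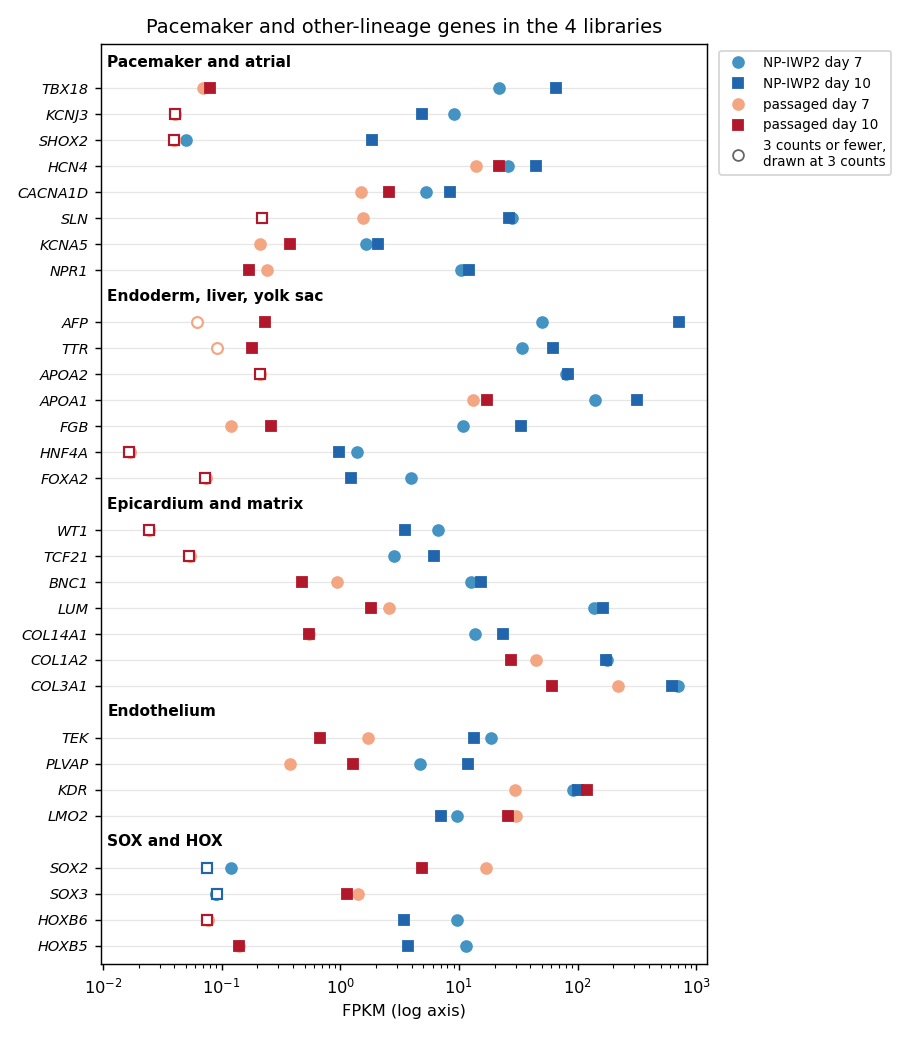
FPKM of pacemaker, atrial and other-lineage genes in the 4 libraries on a log axis, with the same colours and shapes as for the cardiac genes and open symbols for libraries with 3 counts or fewer, drawn at 3 counts. For AFP, TBX18, WT1, LUM and TEK both passaged points lie to the left of both NP-IWP2 points, for SOX2 and LMO2 they lie to the right, and for KDR they fall on both sides.

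A few genes of fatty acid use and muscle energy rose in passaged cultures. Of 29 genes of fatty acid oxidation and muscle energy 4 rose (LPL, CKM, CKMT2 and ETFB) and 0 fell, with medians of 0.12 and 0.36. The summed FPKM of the list was lower in passaged cells on day 7, at 856 and 804.5, and higher on day 10, at 778 and 1045. On day 7, 3 of the 29 genes were at least 2-fold lower and 2 at least 2-fold higher, against 9.55% and 4.71% of all genes. Lipoprotein lipase (LPL), which releases fatty acids for uptake, was at 2.23 and 15.1 FPKM on day 7 and 2.02 and 27.3 on day 10, ratios of 6.78 (5.70 to 8.12) and 13.5 (11.3 to 16.3). The muscle creatine kinase CKM was at 34.3 and 66.7 FPKM and then at 65.9 and 189. Outside the lists, ACADL, the long-chain acyl-CoA dehydrogenase, was among the genes with the largest increase on both days, at 0.30 and 5.49 FPKM and at 0.47 and 4.82. The 18 genes of the TCA cycle had medians of 0.19 and 0.53, and 0 of them passed the edgeR test. Unadjusted p was under 0.05 for 10 of them, all higher, against 22.6% of all genes, and DESeq2 called 1 and limma 0.

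The respiratory chain showed small differences in many genes. Of the 72 subunits encoded in the nucleus, 64 were higher in passaged cells on both days, against 27.1% of all genes, and 1 was lower on both days, against 43.2%. Their median log2 ratio was 0.22 on day 7 and 0.64 on day 10. On day 10, 17 were at least 2-fold higher, against 5.04% of all genes, although 0 passed the edgeR test over both days. Of the 72 genes 44 had an unadjusted p under 0.05, all higher, against 22.6% of all genes, while DESeq2 called 9 as higher and limma called 0. COX6B1, a subunit of cytochrome oxidase, was at 88.0 and 121 FPKM on day 7 and at 29.5 and 95.9 on day 10. Between the days its level went down by more in NP-IWP2 than in passaged cells. All 13 protein genes of the mitochondrial genome were higher by any amount on both days, against 27.1% of all genes. The list medians were 0.35 on day 7 and 0.86 on day 10, and 2 rose by the test (MT-ATP8 and MT-ND4L). By edgeR 8 had an unadjusted p under 0.05, all higher, against 22.6% of all genes, while DESeq2 called 7 as higher and limma 0. The most abundant, the oxidase subunit MT-CO1, was at 13611 and 13612 FPKM on day 7, a ratio of 1.00 (0.995 to 1.005), and at 13994 and 22902 on day 10. The mitochondrial share of counts was 5.41% in NP-IWP2 cells and 6.14% in the passaged cells on day 7, and 6.02% and 10.3% on day 10. Scaling to the total without the mitochondrial genome shifted the median of all genes on day 10 by 0.07.

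Most glycolytic genes were higher in passaged cells, though few passed the test. Of 23 genes 1 rose (PFKP) and 1 fell (SLC2A1), against 1.85% and 3.88% of all genes. On both days 15 were higher, against 27.1% of all genes, and 4 were lower, against 43.2%. Their medians were 0.34 and 0.33. Their summed FPKM was 1672 and 2190.0 on day 7, then 1490.0 and 1903 on day 10. The glucose transporter SLC2A1, which is also a hypoxia gene, was at 33.1 and 12.8 FPKM on day 7 and 24.1 and 5.28 on day 10, and NP-ctrl was at 116 and 109. Of 14 hypoxia genes 2 fell (SLC2A1 and LOX) and 0 rose, with medians of -0.21 and -0.35.

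Cell cycle genes differed more on day 10 than on day 7. Of 25 genes of G2 phase and mitosis 19 were lower by any amount on both days, against 43.2% of all genes. For S phase this was 18 of 25 genes. The summed FPKM of 25 genes of G2 phase and mitosis was 426 in NP-IWP2 cells and 383 in the passaged cells on day 7, and 318 and 112 on day 10, while NP-ctrl was at 367 and 308. On day 10, 23 of the 25 were at least 2-fold lower in passaged cells, against 15.1% of all genes, and the exceptions were AURKA and BUB1. Topoisomerase TOP2A was at 51.7 and 39.6 FPKM on day 7 and 48.9 and 10.7 on day 10, and the proliferation marker MKI67 was at 8.69 and 8.78 and at 6.81 and 1.81. The median log2 ratios were -0.11 and -1.59, and 0 of the 25 genes passed the edgeR test over both days, with 5 at an unadjusted p under 0.05, against 22.6% of all genes, 3 called lower by DESeq2 and 0 by limma. The 25 genes of S phase had medians of -0.17 and -0.69, with 6 at least 2-fold lower on day 10, against 15.1% of all genes. By edgeR 0 passed the test and 3 had an unadjusted p under 0.05, a smaller share than the 22.6% of all genes, and DESeq2 and limma called 0. Of 7 cell cycle inhibitors CDKN1A (p21) rose, at 1.22 and 7.24 FPKM on day 7 and 3.50 and 8.16 on day 10, and CDKN1C (p57) fell, at 70.1 and 41.2 and at 71.3 and 35.4. The list medians were -0.36 and -0.21. Which cells of the cultures held the cell cycle transcripts was not tested, and fibroblast and matrix transcripts were lower on the same day.

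**Figure D4:**
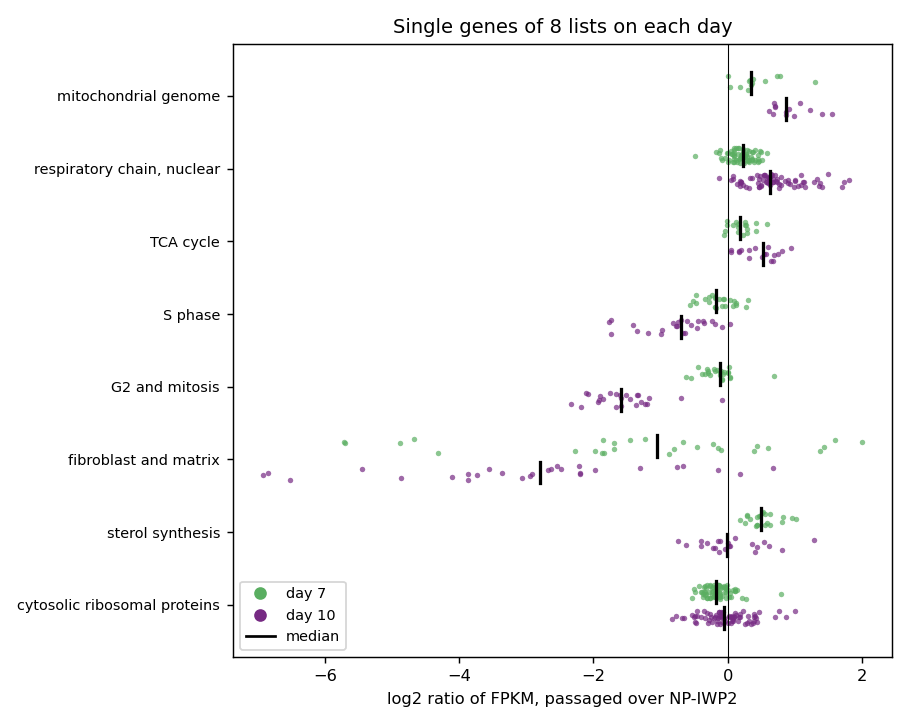
Log2 ratio of FPKM in passaged over NP-IWP2 cells for the single genes of 8 lists, with day 7 in green, day 10 in purple and a black bar at the median. The mitochondrial and respiratory lists lie to the right of 0 and further so on day 10, and the genes of G2 and mitosis lie near 0 on day 7 and to the left of it on day 10, with a median of -1.59.

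WNT pathway genes were lower in passaged cultures mainly among receptors and secreted modulators. Of 28 ligands, receptors and antagonists 7 fell (SFRP5, FZD7, RSPO1, FRZB, FZD1, FZD5 and RSPO3) and 2 rose (WNT11 and WNT5B), with medians of -0.51 and -0.72. The receptor FZD7 was at 175 and 46.9 FPKM on day 7 and 106 and 20.7 on day 10. The secreted antagonist FRZB was at 70.2 and 15.6 and at 77.5 and 7.13, and SFRP5, an antagonist of the inflow and epicardial region, was at 47.1 and 1.2 and at 41.7 and 0.73. WNT11, a non-canonical ligand that promotes cardiac fate, was at 43.4 and 85.2 FPKM on day 7 and 31.9 and 80.3 on day 10. Of 14 WNT target genes 1 rose (TNFRSF19) and 2 fell (LEF1 and SP8), with medians of 0.21 and 0.12, the second of which was -0.10 under TPM. TNFRSF19 was at 13.4 and 43.96 FPKM on day 7 and 39.7 and 148 on day 10, while LEF1, a nuclear partner of beta-catenin, was at 43.6 and 13.6 and at 39.2 and 13.7. AXIN2, the usual readout of the pathway, was at 4.67 and 3.98 FPKM and at 3.89 and 5.17, with no call.

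Among 26 BMP, NODAL and TGF-beta genes 3 rose (LEFTY2, ID1 and BMP2) and 0 fell, with medians of 0.15 and 0.46. BMP2, a ligand that favours cardiac fate, was at 56.6 and 109 FPKM on day 7 and 28.2 and 92.9 on day 10, and its target ID1 was at 110.2 and 239.6 and at 84.2 and 161. BMP4, the related ligand used to induce mesoderm, was lower on both days without passing the test, at 70.6 and 27.0 and at 38.8 and 3.33. Of 19 FGF genes 3 rose (FGF8 and the response genes ETV5 and SPRY4) and 3 fell (the receptors FGFR1, FGFR2 and FGFR4), with medians of 0.002 and -0.42, the first of which was -0.03 under TPM. FGFR4 was at 4.90 and 0.57 FPKM on day 7 and 3.31 and 0.08 on day 10. Of 13 retinoic acid genes RARB rose and ALDH1A1 and RBP4 fell, with medians of 0.12 and 0.10, the second of which was -0.12 under TPM, and ALDH1A1, an enzyme of retinoic acid synthesis, was at 5.81 and 0.31 FPKM and at 13.1 and 0.44.

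Imprinted and insulin-like growth factor genes had 6 of 19 that fell (IGFBP3, PLAGL1, H19, IGF2, DLK1 and CDKN1C) and 0 that rose, with medians of -0.25 and -0.75. The growth factor IGF2 was at 23.2 and 4.61 FPKM on day 7 and 25.9 and 1.35 on day 10, against 79.6 and 112 in NP-ctrl, and its neighbour H19, a noncoding RNA, was at 13.3 and 1.24 and at 8.72 and 0.16. IGFBP3, which binds the factor, was at 118 and 19.6 and at 98.9 and 14.8. Liver and mesenchymal cells also make these transcripts, and the markers of both lists moved in the same direction, but their part in these differences was not tested.

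The routes differ in a replating step, and integrins are the receptors by which cells attach to matrix. Of 28 basement membrane and integrin genes 2 rose (ITGA7 and ITGAV) and 4 fell (NPNT, ITGA8, ITGB8 and ITGA1), with medians of -0.13 and -0.46. The laminin receptor subunit ITGA7, which is typical of muscle, was at 8.69 and 28.1 FPKM on day 7 and 8.06 and 20.1 on day 10, and ITGAV was at 40.1 and 118 and at 63.7 and 104. The subunit ITGA8 was at 15.5 and 0.34 and at 11.5 and 0.76, and its ligand nephronectin (NPNT) was at 4.28 and 0.71 and at 17.3 and 3.46. ITGB1, the beta subunit that pairs with most alpha subunits, was at 46.2 and 54.1 FPKM and at 50.8 and 46.2. Of 19 YAP and TEAD targets CCN2 and ANKRD1 rose and AMOTL1 fell, against 1.85% and 3.88% of all genes. Their medians were -0.03, which was 0.04 under TMM, and -0.59. Of 13 genes of cartilage-type matrix COL2A1 rose and SOX6 fell, with medians of 0.51 and -0.13, the second of which was 0.02 under TMM.

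Stress and housekeeping lists had medians near that of all genes on at least 1 day. Of 12 immediate early genes IER3 rose and JUN fell, with medians of -0.09 and 0.06, the second of which was -0.17 under TPM. JUN was at 18.4 and 4.42 FPKM on day 7 and 11.8 and 3.84 on day 10. Of 17 ATF4 stress genes STC2 rose, with medians of 0.34 and -0.13, the second of which was 0.01 under TMM. The 22 genes of sterol synthesis had medians of 0.50 and -0.01, the second of which was 0.13 under TMM, and the 75 cytosolic ribosomal proteins had medians of -0.17 and -0.05, the second of which was 0.10 under TMM, with 0 genes of these 2 lists past the edgeR test. Unadjusted p was under 0.05 for 6 sterol genes, all higher, and for 4 ribosomal genes, 3 of them higher, against 22.6% of all genes. DESeq2 called 3 sterol genes and 0 ribosomal genes while limma called 0 of either.

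**Figure D5:**
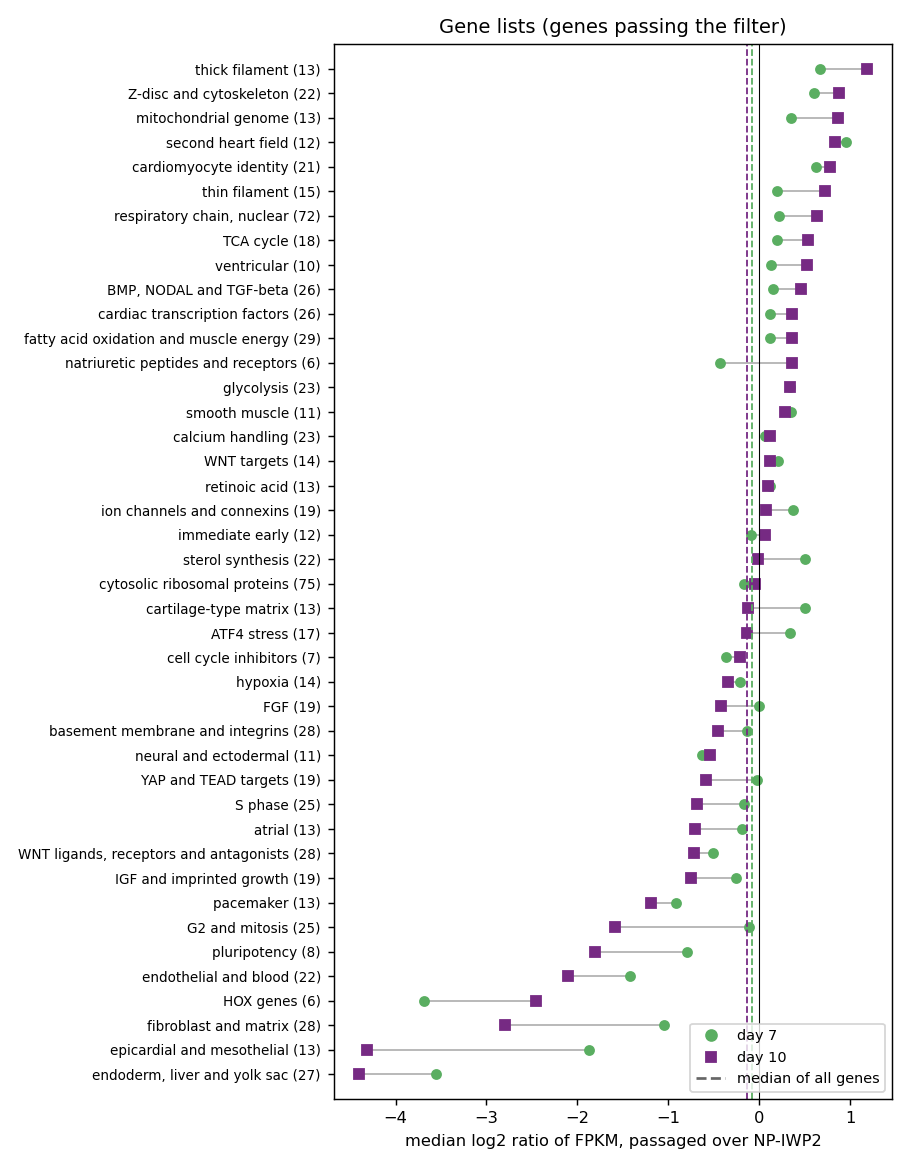
Median log2 ratio of FPKM in passaged over NP-IWP2 cells for each of 42 gene lists, with circles for day 7, squares for day 10, the number of genes that passed the filter in brackets and dashed lines at the medians of all genes. The thick filament list is highest on day 10 (1.19) and the endoderm, liver and yolk sac list is lowest (-4.40), and epicardial, fibroblast and G2 and mitosis genes are further from 0 on day 10 than on day 7.

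The 10 protein-coding genes that were most increased on both days were ranked by the smaller of the daily ratios. They were SOX2, MYH7, ACADL, SYT13, SOX3, RPRM, GJD2, DAPP1, TGFA and SLC5A1, and all 10 rose by the test. The test used the same 4 libraries as the ranking, so passing it is no separate support for genes ranked in either direction. SYT13, a synaptotagmin, was at 0.84 and 14.0 FPKM on day 7 and 0.90 and 11.97 on day 10, ratios of 16.7 (13.2 to 21.4) and 13.2 (10.5 to 16.9), and NP-ctrl was at 0.39 and 0.71. TGFA, a ligand of the EGF receptor, was at 0.11 and 1.74 and at 0.30 and 2.95 FPKM. The glucose cotransporter SLC5A1 was at 0.17 and 2.40 and at 0.47 and 4.35. GJD2, a connexin, had 3 and 32 counts on day 7 and 5 and 60 on day 10, so its ratios of 11.5 (3.60 to 58.7) and 12.5 (5.07 to 39.9) are loose.

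The 10 with the largest decrease were picked in the same way from the same libraries, and all of them fell. They included AFP, TBX18, APOA2, TTR, WT1, MAB21L2, KCNJ3, FGB and FGA, and 5 of the 10 are liver or yolk sac serum proteins. MAB21L2, a gene of the septum transversum and eye, had 1010 and 6 counts on day 7 and 610 and 2 on day 10. Fibrinogen beta FGB had 763 and 8 counts and then 2325 and 17, 88.4-fold (44.7 to 206) and 131-fold (81.9 to 226) lower in passaged cells. Among genes of other biotypes the 3 with the largest increase were ENSG00000235902, which rose, and ENSG00000272625 and ENSG00000283662, which did not pass the test. ENSG00000235902, a long noncoding RNA within SORBS2 on the opposite strand (chromosome 4, 185665885 to 185675417), was at 1.9 and 12.6 FPKM on day 7 and 5.21 and 35.9 on day 10, and its reads and those of SORBS2 may not be separable. The 3 with the largest decrease were LINC00261, ENSG00000285958 and LINC01695, all of which fell. LINC00261, a noncoding RNA next to FOXA2, had 451 and 6 counts on day 7 and 211 and 2 on day 10.

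A small set of genes differed in opposite directions on the 2 days, 94 genes at 2-fold or more (0.59% of all), of which 40 were protein-coding with the count minimum on each day. The 5 with the largest gap between the days were ITGB6, AMER2, SYT6, SLC19A3 and NTN1. NTN1, a guidance signal, was at 0.20 and 0.96 FPKM on day 7 and 0.63 and 0.11 on day 10, ratios of 4.73 (2.92 to 7.99) and 0.179 (0.0851 to 0.342). ITGB6, an epithelial integrin subunit, had 17 and 38 counts on day 7 and 93 and 3 on day 10. In all 5 the level was higher on day 10 than on day 7 in NP-IWP2 cells and lower in passaged cells, and all were at or under 2.00 FPKM, so they concern rare transcripts.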

How the data were processed

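Bulk RNA-seq libraries of H1 cells were sequenced by the authors, whose processing notes name cutadapt 1.9.1, HISAT2 2.0.1, HTSeq 0.6.1, the build hg38 and DESeq2. The labels name a long-read library kit beside these short-read tools, so values per length carry that doubt, and use of strand in the counting is not given in the sources used here. The deposited table gives raw counts per gene and, beside them, FPKM that the authors computed from the counts, the exon length and the total count of each library. FPKM recomputed from these columns differed by at most 0.005. The deposited rows had no symbol for 20014 genes, of which 19913 were named from the reference.

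Libraries were grouped by their labels and compared by day. FPKM ratios of genes with at least 30 counts in 1 of the 4 libraries were computed with counts of 3 or fewer set to 3 for counts of genes, medians and ranks, and for single genes with only 0 counts set to 3. No fold was taken where both libraries had 3 counts or fewer. The quasi-likelihood test of edgeR 4.0.16 (R 4.3.3) was fitted with TMM factors to the 4 libraries with day as a block, two-sided, with Benjamini-Hochberg adjustment over 15919 genes and a threshold of 0.05. The test has 1 residual degree of freedom per gene, moderated over genes. Alternatives used DESeq2 1.42.0, limma 3.58.1 and other scalings, filters and samples. Total counts of 14991859 to 16168278 per library make counting error small for abundant genes only, and intervals cover no other error.

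The members and the 42 gene lists were chosen with earlier results of these data known. Genes named outside the lists were the 10 protein-coding genes in each direction, and the 3 of other biotypes, with the largest ratio on both days by the smaller of the daily absolute log2 ratios, and the 5 protein-coding genes with the largest gap between opposite daily ratios among those with 30 counts in 1 library of each day. Promoter sequences are from RefSeq, build GRCh38.p14. Python 3.11.15 was used with pandas 2.3.3, scipy 1.17.1 and matplotlib 3.10.9. Some genes of the lists are not reported here by name.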

Additional observations from a re-analysis of the deposited data

Results flagged for a closer look

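The following results differed in direction between the 2 days, and the difference was not tested, since each arm had 1 library a day. The log2 ratio of passaged over NP-IWP2 cells was 2.79 on day 7 and -3.06 on day 10 for AMER2, a membrane protein of the WNT pathway. It was 1.24 and -2.14 for HEY1, a NOTCH target of atrial and endothelial cells, and 1.23 and -2.71 for IGFBP5, a binding protein of insulin-like growth factors. It was 1.27 and -4.90 for ITGB6, 2.24 and -2.48 for NTN1, 2.56 and -2.21 for the thiamine transporter SLC19A3, and 1.31 and -3.82 for the synaptotagmin SYT6.

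Medians of 6 gene lists also had opposite signs on the 2 days. They were -0.43 on day 7 and 0.36 on day 10 for natriuretic peptides and receptors, 0.51 and -0.13 for cartilage-type matrix, 0.002 and -0.42 for FGF genes, -0.086 and 0.058 for immediate early genes, 0.50 and -0.014 for sterol synthesis, and 0.34 and -0.13 for ATF4 stress genes. For 5 of these lists, all but the natriuretic list, 1 of the 2 medians changes sign under TMM or TPM scaling, as given beside each list.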

How the results depend on the processing

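Genes at least 2-fold apart on both days numbered 1355, and 854 with 100 counts in 1 library, 499 at a fold of 4 and 491 on the log2(FPKM + 1) scale. On day 7 the 2269 genes became 4661 with no filter, 1289 with 100 counts, 803 at a fold of 4 and 844 on the log2(FPKM + 1) scale, and on day 10 the 3203 genes became 6215, 1972, 1170 and 1382. Of the day 10 genes 25.1% were higher, against 35.0% with TMM and 15.1% with TPM. The edgeR test called 913 genes, and DESeq2 called 1238, of which 888 were shared in direction. Limma on log2(FPKM + 1) called 327 (71 higher and 256 lower). The edgeR test called 539 with total counts (112 higher and 427 lower), 2727 of 35271 genes with no filter and 573 of 12688 with 100 counts. Without day as a block edgeR called 79 (6 and 73), and over 12 libraries of days 3 to 10 it called 254 (78 and 176). Of those 254, 170 were among the 913. The remaining counts stayed within 1.5 times. Over the 12 libraries the log2 change of DES was 0.017 (edgeR adjusted p 0.995) in place of a fall. Of 144 genes named or chosen by the rule that the main test called, 138 kept the call with DESeq2, 126 over 6 libraries, 118 with DESeq2 size factors, 102 with total counts, 107 of 140 with 100 counts, 70 with limma, 30 over 12 libraries and 27 without day as a block. No paired analysis was possible because the labels give no replicate numbers, and the pairing by day is the block above. Leaving out a library leaves no residual degrees of freedom, so the counts of single days stand for it. With 1 library per arm and day, differences between separate differentiations were not measured, and genes with few counts have wide intervals.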
